A study of Mus musculus with 6 samples.

Results

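The 9 genes studied, all of the developing olfactory neuron lineage, were followed across 6 libraries of mouse facial tissue. They are Neurog1, Neurod1, Insm1, Lhx2, Emx2, Ebf1, Ebf2, Ebf3 and Gng8, matched by gene symbol, and all 9 were found among the 24346 symbols that each library reports. The tissue was the nasomaxillary complex, the part of the head that forms the nose and upper jaw, taken from E17.5 embryos. The 3 mutant libraries carry Wnt1-Cre and floxed Pth1r (Wnt1-Cre:Pth1r f/f), and the 3 control libraries carry floxed Pth1r alone (Pth1r f/f). Pth1r encodes the receptor for parathyroid hormone and its related protein. Both groups hold the floxed allele and only mutants hold the Cre, so losing Pth1r and carrying Cre cannot be told apart. Wnt1-Cre recombines in neural crest cells, whereas olfactory neurons derive mainly from the olfactory placode. Neither strain nor litter is given in the sources used here, nor whether a library is 1 embryo. The p-values thus cover only the spread among these 6 libraries, which may be technical in part. The mutant libraries differ in sex by their RNA, as given below, so they are not all repeats of 1 embryo.

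New olfactory neurons arise from basal progenitors of the olfactory epithelium. These progenitors switch on proneural transcription factors, leave the cell cycle and pass through an immature stage before they make odorant receptors and the signalling proteins of the mature cell. Neurog1 and Neurod1 are basic helix-loop-helix factors that act in sequence in the committed progenitor, and Insm1 is a zinc finger factor of progenitors that produce neurons. Lhx2, a LIM homeodomain factor, and Emx2, a homeodomain factor, are needed for odorant receptor genes to be expressed normally. Ebf1, Ebf2 and Ebf3 belong to the Olf/EBF family, named after sites in olfactory neuron promoters and after the early B cell. Gng8 encodes a G protein gamma subunit found in immature olfactory and vomeronasal neurons.

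The promoters of Neurog1, the gene with the smallest p below, and of Ebf3, the most abundant Ebf gene, are shown because each holds a short motif of a factor class within the set. They are RefSeq sequences of GRCm38.p6, 250 bases ending at the annotated start, read 5′ to 3′ on the minus strand. The Neurog1 window is chr13:56252181-56252430, with the homeodomain core TAATTA in capitals at position -199 from the start. The Ebf3 window is chr7:137314446-137314695, with a match to the Ebf core CCCNNGGG in capitals at position -21.
Neurog1: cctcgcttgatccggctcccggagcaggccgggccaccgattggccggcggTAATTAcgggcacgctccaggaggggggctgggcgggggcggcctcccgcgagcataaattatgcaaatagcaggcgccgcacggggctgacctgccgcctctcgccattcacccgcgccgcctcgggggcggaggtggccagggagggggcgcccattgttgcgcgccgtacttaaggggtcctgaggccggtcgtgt
Ebf3: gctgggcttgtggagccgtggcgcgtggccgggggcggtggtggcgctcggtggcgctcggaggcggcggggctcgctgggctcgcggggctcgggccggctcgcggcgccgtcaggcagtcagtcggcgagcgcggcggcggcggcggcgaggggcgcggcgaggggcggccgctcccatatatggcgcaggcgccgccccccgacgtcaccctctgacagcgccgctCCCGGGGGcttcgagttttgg
RefSeq held 9 such windows for 7 of the 9 genes. Both strands were searched, and N stands for any base. TAATTA lay in 1 of the 9 windows, against 4.84% of 32851 windows of all genes, and CCCNNGGG lay in 1 of 9, against 11.8%. The general E-box CANNTG, the motif class bound by Neurog1 and Neurod1, was in 2 of 9 windows, those of Neurod1 and of 1 Ebf1 start, against 66.2% of all windows. Its form CAGATG, which is also counted in CANNTG, was in 0 of 9 windows, against 14.4%. A match is only a match of letters.

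The comparison asked how these 9 genes stand in mutant and control tissue. All 9 had a negative log2 change, mutant minus control, but none passed the test. Neurog1 and Neurod1 had the most negative values, at 63.8% and 68.4% of the control mean, and Lhx2 followed at 76.9%, while Emx2 stood at 99.9%. The level of a gene is given in FPKM, fragments scaled to transcript length and to the fragments mapped in the library, and a change is the difference of mean log2(FPKM + 1), tested by limma with Benjamini-Hochberg adjustment over the 14766 genes whose mean reached 1 FPKM. All 9 genes passed that filter. At an adjusted p under 0.05 limma called 0 of the 9, against 39 of all tested genes (0.264%, 9 higher and 30 lower in mutant). At an unadjusted p under 0.05 there was 1 of 9, Neurog1, against 11.3% of all genes. In 2 of 9, Neurog1 and Lhx2, every mutant library was below every control library, against 9.16% of all genes, and in 0 of 9 was every mutant library above, against 7.85%. The median change of the 9 genes was -0.16, and that of all tested genes was -0.0020, with 50.8% of all genes negative. In whole tissue, fewer cells of a type and less RNA per cell cannot be told apart.

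**Figure D1:**
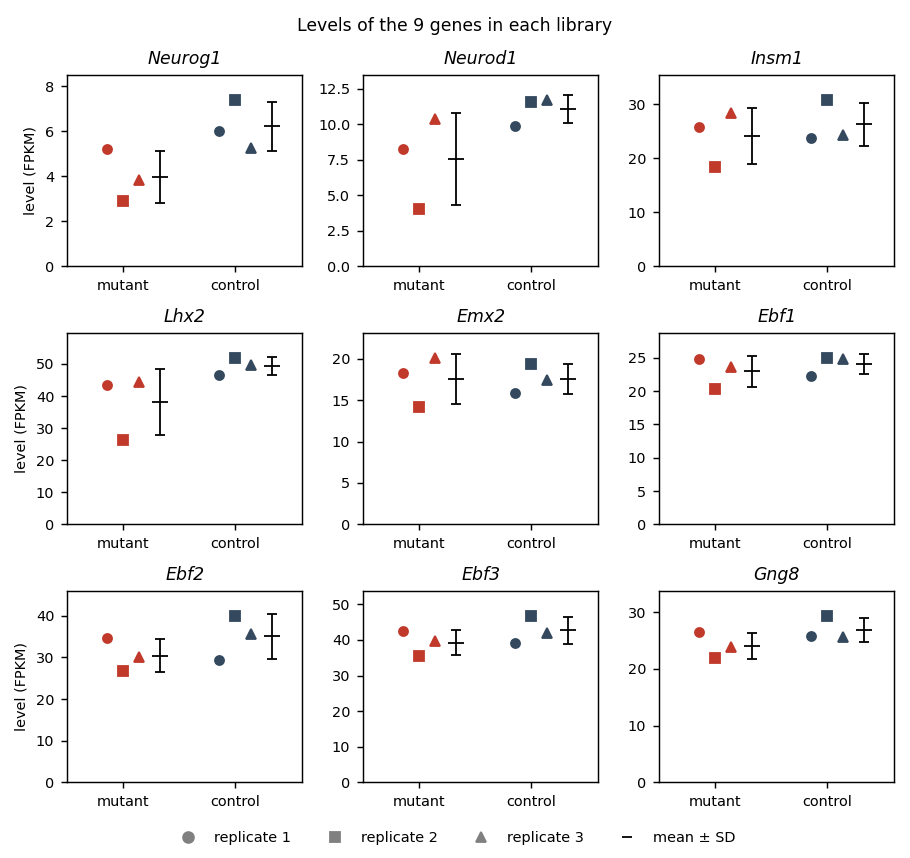
FPKM of each of the 9 genes (y axis, one panel a gene) in 3 mutant and 3 control libraries (x axis), with symbols for the replicate and bars for mean ± SD. Mutant replicate 2, the red square, is the lowest point in every panel, and the groups are apart only for Neurog1 and Lhx2.

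Among the proneural factors, Neurog1 (chromosome 13, 56250478 to 56252163, minus strand, GRCm38) had 5.20, 2.89 and 3.81 FPKM in mutant replicates 1 to 3, against 5.99, 7.40 and 5.25 FPKM in control replicates 1 to 3. The groups did not overlap, but mutant replicate 1 and control replicate 3 lay close together. Its change was -0.55 ± 0.18 (SE; 95% interval -0.98 to -0.12), with a limma p of 0.0184 and an adjusted p of 0.335. Neurog1 is also the least abundant of the 9. Its values rest on about 120, 57 and 56 fragments in mutant replicates 1 to 3 and about 130, 180 and 110 in control replicates 1 to 3. The counting error was 7.5% to 13.0% for each. These counts use a depth estimated from low FPKM values, whose own error is not given here.

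Neurod1 (chromosome 2, 79452521 to 79456751, minus strand) had 8.28, 4.02 and 10.4 FPKM in mutant libraries, against 9.90, 11.5 and 11.7 FPKM in control libraries. Mutant replicate 2 was far below the other libraries and mutant replicate 3 lay within the control range, so the groups overlapped. The change was -0.57 ± 0.27 (SE; 95% interval -1.22 to 0.074), with an adjusted p of 0.488 in limma. Without mutant replicate 2 it was -0.23. Insm1 (chromosome 2, 146221921 to 146225020, plus strand) had 25.9, 18.3 and 28.3 FPKM in mutant libraries, against 23.7, 30.9 and 24.3 FPKM in control libraries. Here 2 of the 3 mutant libraries exceeded 2 of the 3 controls. The change of Insm1 was -0.13 ± 0.17 (SE; 95% interval -0.52 to 0.26; limma adjusted p = 0.829), and its sign turned, to 0.050, without mutant replicate 2.

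Of the homeodomain factors, Lhx2 (chromosome 2, 38339281 to 38369733, plus strand) had 43.4, 26.2 and 44.5 FPKM in mutant libraries, against 46.5, 52.0 and 49.8 FPKM in control libraries. All 3 mutant values were below all 3 control values, mutant replicate 2 by a wide margin and the others narrowly. The change was -0.41 ± 0.19 (SE; 95% interval -0.85 to 0.034), with a limma adjusted p of 0.474, and it was -0.16 without mutant replicate 2. Emx2 (chromosome 19, 59458372 to 59465357, plus strand) had 18.3, 14.2 and 20.1 FPKM in mutant libraries, against 15.9, 19.4 and 17.4 FPKM in control libraries. Its lowest and its highest library were both mutant. The means, 17.6 ± 3.03 FPKM in mutant and 17.6 ± 1.80 FPKM in control (SD, n = 3 each), gave a change of -0.010 ± 0.13 (SE; 95% interval -0.31 to 0.29; limma adjusted p = 0.988).

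Among the Ebf genes, Ebf1 (chromosome 11, 44617317 to 45008091, plus strand), which also acts in B cells and in fat and mesenchymal cells, had 24.9, 20.4 and 23.7 FPKM in mutant libraries, against 22.3, 25.02 and 24.8 FPKM in control libraries. Ebf2 (chromosome 14, 67233292 to 67430918, plus strand) had 34.5, 26.6 and 30.0 FPKM in mutant libraries, against 29.4, 40.0 and 35.6 FPKM in control libraries. Ebf3 (chromosome 7, 137193673 to 137314445, minus strand) had 42.4, 35.4 and 39.8 FPKM in mutant libraries, against 39.2, 46.8 and 42.0 FPKM in control libraries. In all 3 genes mutant replicate 2 was lowest, mutant replicate 1 exceeded control replicate 1, and the groups overlapped. The changes in limma were -0.065 ± 0.084 for Ebf1, -0.19 ± 0.13 for Ebf2 and -0.12 ± 0.087 for Ebf3 (SE), with adjusted p of 0.828, 0.627 and 0.663. The 95% intervals ran from -0.26 to 0.13 for Ebf1, from -0.50 to 0.11 for Ebf2 and from -0.32 to 0.084 for Ebf3. Ebf2 was at -0.11 without mutant replicate 2 and -0.096 without control replicate 2, and Ebf3 at -0.051 and -0.053.

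Ebf4, the remaining family member, had 33.3 ± 0.889 FPKM in mutant and 31.1 ± 2.79 FPKM in control libraries (SD, n = 3 each), a change of 0.10 with a limma adjusted p of 0.641. As shares of the summed FPKM of Ebf1 to Ebf4, Ebf1 made 18.2% ± 0.515 in mutant and 18.1% ± 0.525 in control libraries. Ebf2 made 24.1% ± 1.16 in mutant and 26.3% ± 1.74 in control libraries, and Ebf3 made 31.1% ± 0.331 in mutant and 32.1% ± 1.18 in control libraries (SD, n = 3 each). Ebf4 made 26.6% ± 1.64 in mutant and 23.5% ± 1.84 in control libraries. Ebf3 was the most abundant of the 4 in each group. No test was made on the shares.

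Close relatives of the other genes were scarce. Neurog2, Neurog3, Neurod2, Neurod4, Neurod6, Lhx9, Emx1 and Insm2, 8 of the 10 relatives examined, had a mean under 1 FPKM. The most abundant of these 8 was Emx1, with 0.492 ± 0.202 FPKM in mutant and 0.447 ± 0.190 FPKM in control libraries (SD, n = 3 each). Gng13, the gamma subunit of mature olfactory neurons and the relative of Gng8, had 133 ± 9.09 FPKM in mutant and 136 ± 8.63 FPKM in control libraries, with a change of -0.035 and a limma adjusted p of 0.896.

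Gng8 (chromosome 7, 16891786 to 16895436, plus strand) had 26.4, 21.9 and 23.8 FPKM in mutant libraries, against 25.8, 29.4 and 25.6 FPKM in control libraries. Mutant replicates 2 and 3 lay below every control, and mutant replicate 1 lay inside the control range. The change was -0.16 ± 0.084 (SE; 95% interval -0.36 to 0.038; limma adjusted p = 0.531). Ratios of 2 genes within a library were used to set the stages of the lineage against each other. The ratio of Gng8 to Omp, the olfactory marker protein of mature neurons, was 0.309, 0.235 and 0.261 in mutant libraries, against 0.350, 0.328 and 0.336 in control libraries. The groups did not overlap, and the difference of mean log2 ratios was -0.34. The two-sided exact permutation p was 0.1, the smallest that 3 against 3 allows, and 0.35 after adjustment over 7 ratios. Omp itself had 90.0 ± 3.90 FPKM in mutant and 79.9 ± 8.55 FPKM in control libraries (SD, n = 3 each), with a change of 0.17 and a limma adjusted p of 0.467.

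The ratio of Neurog1 to Gng8 was 0.197, 0.132 and 0.160 in mutant libraries, against 0.232, 0.252 and 0.205 in control libraries. Again the groups did not overlap, with a log2 difference of -0.51 and the same exact permutation p of 0.1 (adjusted 0.35). For Neurod1 to Gng8, the log2 difference was -0.49, but mutant replicate 3, at 0.436, lay within the control range of 0.383 to 0.458 (exact permutation p = 0.3), and without mutant replicate 2 the difference was -0.15. Lhx2 to Gng8 differed by -0.25 and Emx2 to Gng8 by 0.15, each with overlapping groups and an exact permutation p of 0.3. Without mutant replicate 2 these were -0.068 and 0.23. Insm1 to Gng8 differed by 0.030 (exact permutation p = 0.9). Ebf1 to the sum of Ebf2 and Ebf3 was 0.323, 0.328 and 0.339 in mutant libraries, against 0.325, 0.288 and 0.319 in control libraries, a difference of 0.090 (exact permutation p = 0.2). No ratio passed the threshold of 0.05, and this design could not have let one pass. How often ratios of other genes keep the groups apart is not given here.

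**Figure D2:**
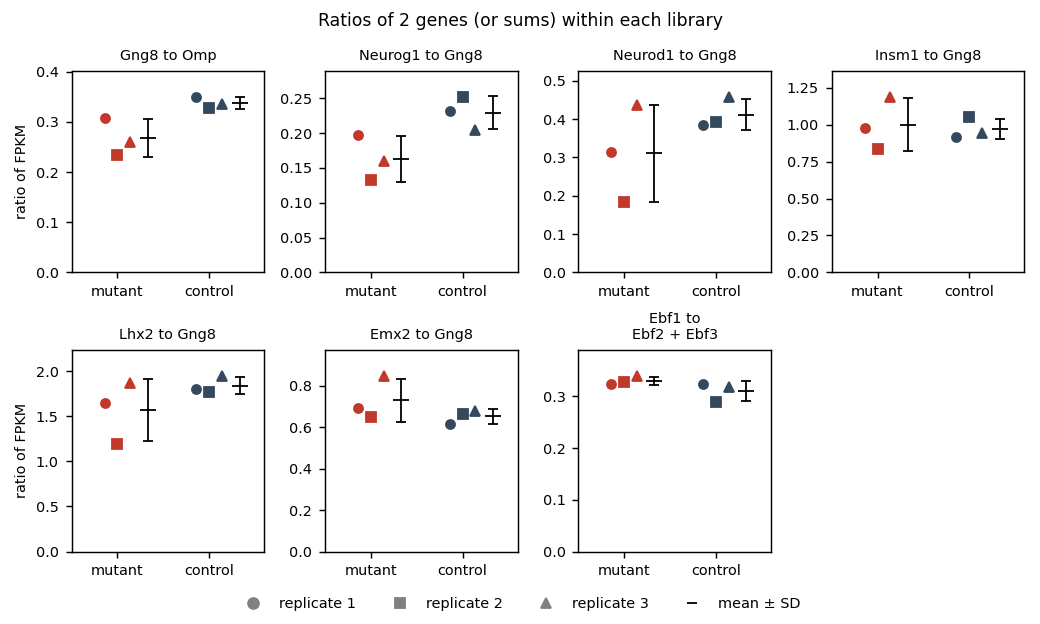
Ratios of FPKM within a library (y axis, one panel a ratio) for 3 mutant and 3 control libraries (x axis), with symbols for the replicate and bars for mean ± SD. Mutant and control points are apart for Gng8 to Omp and for Neurog1 to Gng8, and they overlap in the other 5 panels.

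The order of the levels was nearly the same in every library. By the mean FPKM of all 6, Lhx2 (43.7) came first, followed by Ebf3 (40.9), Ebf2 (32.7), Gng8 (25.5), Insm1 (25.2), Ebf1 (23.5), Emx2 (17.6), Neurod1 (9.31) and Neurog1 (5.09). Emx2, Neurod1 and Neurog1 took ranks 7, 8 and 9 in each of the 6 libraries. Lhx2 was above Ebf3 in 5 of 6 libraries, and in the exception, mutant replicate 2, it stood below both Ebf3 and Ebf2. Gng8 was above Insm1 in 4 of 6 libraries, and Insm1 was above Ebf1 in 4 of 6, so these neighbours cannot be put in order. The library ranges of Ebf1 and Emx2 did not overlap, nor did those of Emx2 and Neurod1, whereas the ranges of Neurod1 and Neurog1 did.

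The libraries contributed unequally to the negative changes. Mutant replicate 2 was the lowest of the 6 libraries for all 9 genes, and the mean of their log2 values was -0.55 there relative to the control mean. The same mean was -0.078 in mutant replicate 1 and -0.11 in mutant replicate 3, within the control range of -0.12 to 0.14. Without mutant replicate 2, 6 of the 9 changes were negative, with a median of -0.096. Neurog1 was then at -0.39, Lhx2 at -0.16 and Gng8 at -0.096, and Emx2, Ebf1 and Insm1 were positive.

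That library differed in other tissues too. The mean of 8 skeletal muscle genes relative to the control mean was 0.59, 1.51 and 0.21 on the log2 scale in mutant replicates 1 to 3, against 0.33, -0.33 and 0.0061 in control replicates 1 to 3. Their summed FPKM ran from 356 to 951 in mutant and from 245 to 427 in control libraries. All 8 muscle genes had positive changes, with a median of 0.71. Limma called 0 of the 8, and 4 had an unadjusted p under 0.05, against 11.3% of all genes. In 3 of the 8 every mutant library was above every control library, against 7.85% of all genes, and in 0 every one was below, against 9.16%. Ensheathing and Schwann glia genes averaged 0.43 in mutant replicate 2 and between -0.11 and 0.10 in the other 5 libraries. With the muscle mean as a covariate, 2 of the 9 genes, Neurog1 at -0.29 and Gng8 at -0.041, had negative changes. The muscle mean itself leaned higher in mutant libraries, with overlap, and was highest in mutant replicate 2. That fit thus cannot separate muscle content from genotype or from that library. The libraries also differed in sex, since Xist and Y-linked genes put mutant replicate 1 and all 3 controls as female and mutant replicates 2 and 3 as male. No control was male, so with sex as a covariate the change compares mutant replicate 1 alone with the 3 controls. In that fit 7 of 9 changes were negative, with a median of -0.013. The muscle covariate let none of the 9 pass. The part of the tissue sampled, of sex or of mutant replicate 2 in these values was not tested.

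**Figure D3:**
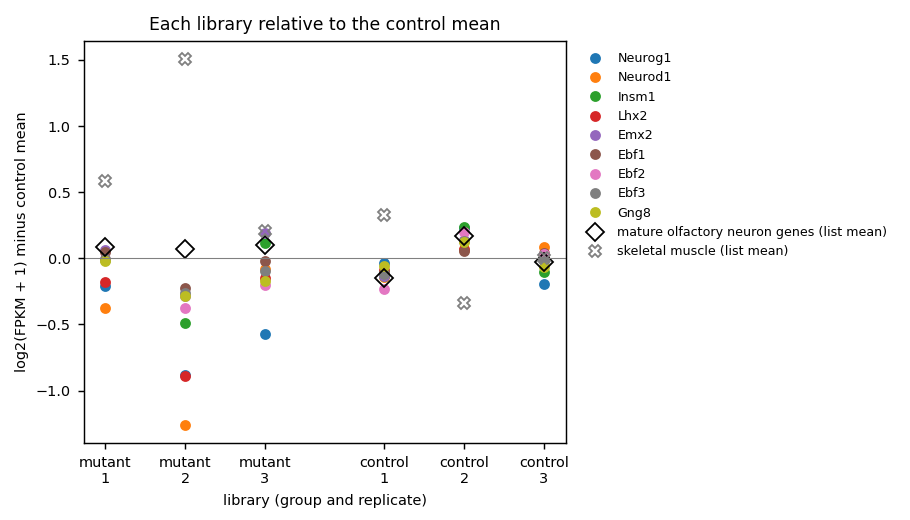
Each library's log2(FPKM + 1) minus the control mean (y axis) for the 9 genes (filled circles), with the mean of 20 mature olfactory neuron genes (open diamonds) and of 8 skeletal muscle genes (open crosses), for 3 mutant and 3 control libraries (x axis). In mutant replicate 2 all 9 circles lie below 0 while the diamond is at 0.073 and the cross at 1.51.

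The rest of the lineage was read from lists chosen by role. Of 24 further regulators of olfactory progenitors and early neurons, 21 had negative and 3 positive changes, with a median of -0.16. Limma called 0 of the 24, against 0.264% of all genes, and 4 of the 24 had an unadjusted p under 0.05, against 11.3%. In 5 of the 24, among them Hes6, Hes5, Eya2 and Mycn, all mutant values were below all control values, against 9.16% of all genes. In 1 of the 24, Ldb2, all were above, against 7.85%. Hes6, which favours neuronal differentiation, had 56.7 ± 6.62 FPKM in mutant and 74.2 ± 1.98 FPKM in control libraries (SD, n = 3 each), with a change of -0.39 and an adjusted p of 0.176 in limma. Of 20 genes of immature neurons, 13 were negative and 7 positive, with a median of -0.10, 0 called and 4 at an unadjusted p under 0.05 in limma. The 2 of smallest p in that list went opposite ways, with Ddit4l at 0.31 (limma adjusted p = 0.273) and Stmn1, a microtubule regulator, at -0.25 (0.335).

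Mature neuron genes had the opposite balance. Of 20 such genes, 3 were negative and 17 positive, with a median of 0.10. Limma called 0 of them, 0 had an unadjusted p under 0.05, and in none were the groups apart. Rtp2, which helps odorant receptors reach the cell surface, had a change of 0.14 with a limma adjusted p of 0.513. The mature list averaged 0.083, 0.073 and 0.10 relative to the control mean in mutant replicates 1 to 3. These values lay within the control range of -0.15 to 0.17. In mutant replicate 2 the 9 genes averaged -0.55. Whether the progenitor and the mature genes differ in their change was not tested.

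**Figure D4:**
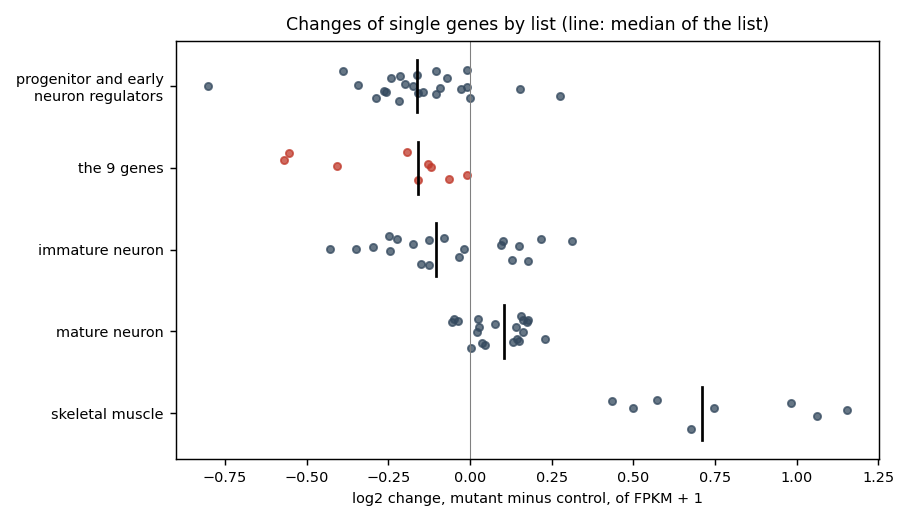
Log2 change, mutant minus control (x axis), of each gene in 5 lists (y axis, with scatter in height only for legibility), with a line at each list's median. The medians are -0.16 for the progenitor regulators and for the 9 genes (red), -0.10 for immature, 0.10 for mature and 0.71 for skeletal muscle genes.

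Several of the 9 genes are also used by other cells of the face, whose markers were read beside them. Neurog1 and Neurod1 act in cranial sensory ganglia, where Pou4f1, Tlx3 and Scn10a were each at most 0.211 FPKM in all 6 libraries, whereas Prph, a filament protein of peripheral neurons, averaged 24.7 FPKM. Of 11 ganglion genes, 5 had a mean under 1 FPKM. In 2 of the 6 tested, the neurotrophin receptors Ntrk2 and Ntrk3, all mutants were above all controls, against 7.85% of all genes. Their changes were 0.32 and 0.27, with limma adjusted p of 0.205 and 0.434. The 6 ganglion genes that passed the filter were 2 negative and 4 positive, with a median change of 0.062. Of 10 forebrain genes 7 had a mean under 1 FPKM, and the other 3 had a median change of 0.13. Ebf1 acts in B cells and adipocytes, and 5 of 8 B cell genes and 3 of 9 adipocyte genes had a mean under 1 FPKM. The 3 B cell genes tested had a median change of 0.070. The adipocyte genes tested had 1 negative and 5 positive changes, with a median of 0.22, and Lpl, a lipase of fat and muscle, was at 0.58 (limma adjusted p = 0.163). Lhx2 also acts in hair follicles, where 5 of 7 genes were negative with a median of -0.069. The 2 of smallest p in that list went opposite ways, with Sox9 at -0.49 and Krt17 at 0.40 (limma adjusted p = 0.181 and 0.335). Of 8 genes of facial mesenchyme and osteoprogenitors, 7 were negative, with a median of -0.12. Insm1 and Neurod1 also act in neuroendocrine cells, where 2 of 5 genes were negative with a median of 0.083, and Scg2, a secretory granule protein, was at -0.56 with a limma adjusted p of 0.091. Of the 9 vomeronasal and GnRH neuron genes, 4 were negative and 5 positive, with a median of 0.042. In these 8 lists limma called 0 genes. At an unadjusted p under 0.05 they held from 0 (forebrain, B cells) to 3 of 7 (hair follicle), against 11.3% of all genes.

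Of the 15 lists, that of ensheathing and Schwann glia genes alone held a called gene. S100b, a calcium-binding protein that cartilage also makes, had 9.82, 10.6 and 9.89 FPKM in mutant libraries, against 16.8, 18.5 and 18.2 FPKM in control libraries. The groups were well apart, and S100b fell by 0.76 on the log2 scale, with a limma adjusted p of 0.00664. With sex as a covariate, which compares mutant replicate 1 alone with the controls, the change was -0.80. No call is read from that fit, so it does not show that the call holds. With muscle genes as a covariate it was -0.78, with a limma adjusted p of 0.0819. The other tested genes of that list were 2 negative and 7 positive. Among 14 genes of supporting and horizontal basal cells, the neighbours of the neurons in the epithelium, 10 were positive, with a median of 0.14. Limma called 0 of the 14, and 5 had an unadjusted p under 0.05, against 11.3% of all genes. In 4 of the 14 all mutants were above all controls, against 7.85% of all genes, and in 1 all were below, against 9.16%. Krt5, which basal cells of all stratified epithelia make, was among the 4.

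The profiles of the 9 genes over the 6 libraries were compared in pairs. Over the 36 pairs, Pearson r of log2(FPKM + 1) ran from 0.444 to 0.985 with a median of 0.823, and Spearman rho had a median of 0.629. Without mutant replicate 2 the median r was 0.466. Ebf2 with Ebf3 (0.976 in 6 libraries, 0.970 in 5) and Neurog1 with Gng8 (0.969 and 0.933) were the 2 pairs above 0.9 in both. Neurod1 with Lhx2 was at 0.985 with all libraries and 0.854 without mutant replicate 2, and Emx2 with Neurog1, the lowest pair, at 0.444 and -0.293. These values describe 6 libraries that share their depth and tissue composition across genes, and they carry no test.

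Genes outside the set with the nearest pattern were found by Pearson r over the 6 libraries among 14757 other genes. Neurog1 was nearest to Siva1 (0.993), and Neurod1 to Crabp1 (0.998) and Mto1 (0.996). Lhx2 was nearest to Sema4f (0.996) and Dmrta2 (0.994), and Arhgdig (0.989) was among the nearest to Emx2. For Ebf1 the nearest were Zcchc18 (0.997) and Ankrd13b (0.995), for Ebf2 Znhit3 (0.997) and Ggt7 (0.992), and for Ebf3 Slc22a5 (0.997) and Fastkd2 (0.988). For Gng8 they were Inadl (0.995) and Cd2bp2 (0.992), and for Insm1 Pou2f1 (0.999) and Atp7b (0.998). Between 0.955% and 2.01% of all other genes reached an r of 0.9 with a given one of the 9. Crabp1, the retinoic acid-binding protein with the pattern of Neurod1, had 104.5, 63.7 and 119 FPKM in mutant replicates 1 to 3, against 115, 134 and 134 FPKM in control libraries.

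**Figure D5:**
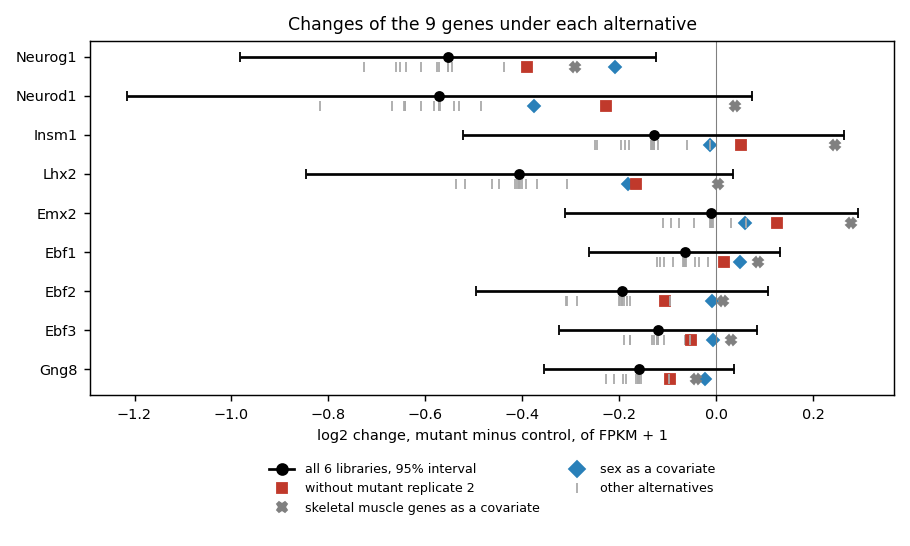
Log2 change, mutant minus control (x axis), of each of the 9 genes (y axis) with all 6 libraries (black circle, 95% interval) and under 19 alternatives (symbols below it). Neurog1 and Gng8 stay left of 0 under all 19, and the muscle covariate moves the other 7 to 0.0032 or above. Other filters and moderation cannot move a change and repeat the value of all 6 libraries.

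Some values share sequence with neighbouring genes. Emx2os, transcribed from the opposite strand, shares 264 exon bases with Emx2 and had 1.78 ± 0.136 FPKM in mutant and 1.98 ± 0.176 FPKM in control libraries (SD, n = 3 each). Cerkl, on the same strand, shares 201 exon bases with Neurod1 and was at or under 1.04 FPKM in all libraries. On the opposite strand, Gm10860 shares 424 exon bases with Ebf2, Gm45278 355 with Ebf3 and Gm26755 154 with Neurod1, and these have no values. The library kit marks strand, but whether the counting used strand is not stated. Reads of Emx2 and Emx2os, and of these other opposite-strand pairs, could thus be mixed. Pth1r, the targeted gene, had 77.3, 78.4 and 69.7 FPKM in mutant libraries, against 75.2, 55.2 and 73.5 FPKM in control libraries, with a limma adjusted p of 0.686. The tissue holds many cells outside the neural crest and the floxed stretch is not stated, so this value does not check the genotype. Depth, estimated from the spacing of low values, was about 8720000 to 13300000 fragments in mutant and 12200000 to 14400000 in control libraries.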

How the data were processed

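Messenger RNA of 3 mutant and 3 control libraries was grouped by the genotype label. The authors deposited FPKM per gene symbol, per the file headers. The submitters' processing notes name Cuffdiff 2.2.1, TopHat2 2.1.1, SAMtools 0.1.18 and Bowtie2 2.2.8, and build mm10. The annotation is not given in the sources used here.

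Values were analysed without further scaling as log2(FPKM + 1), which understates changes of low genes, by limma 3.58.1 in R 4.3.3 (eBayes with trend, two-sided, 4 residual degrees of freedom). Ratios within libraries were tested by exact permutation. The fit was tested on simulated data. Depth was estimated from the value of 1 fragment, and no count test was used.

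The 9 genes and the 15 lists of other genes were chosen with earlier results of these data known. The rule names all 9, their relatives, up to 4 called genes of each list or else the 2 of smallest p, and the 2 nearest genes by r. For lists outside the olfactory lineage only some of these are printed, and a few genes that the rule names are not reported here. Hes5, Eya2, Mycn, Ldb2 and the ganglion markers were named after their values were seen. Drgx and Ighm are not analysed here.

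Positions are from GENCODE on GRCm38. Plots were drawn with matplotlib 3.10.9. Alternatives were other pseudocounts, filters, scalings, moderation, library weights, 3 covariates, an adjusted p under 0.1, and leaving out each library.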

Additional observations from a re-analysis of the deposited data

How the results depend on the processing

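None of the 9 genes was called under any of the 19 alternatives or at an adjusted p under 0.1, and Neurog1 and Gng8 stayed negative in 19 of 19, from -0.73 to -0.21 and from -0.23 to -0.023. The genes called over the whole table, 39, became 18 without the filter, 19 without trend, 71 with library weights, 80 at an adjusted p under 0.1, and 10, 8 and 5 with sex, mature olfactory neuron genes and muscle genes as covariates. Leaving out each library gave 17 to 44. Other filters and moderation cannot move a change, so under them Neurog1 and Gng8 repeat the value of all 6 libraries. Signs turned with the muscle covariate for Neurod1 (0.039), Lhx2 (0.0032), Emx2 (0.28), Ebf1 (0.085), Ebf2 (0.013), Ebf3 (0.031), Insm1 (0.25), Blnk (0.088) and Gng13 (0.0088). They turned with sex, a comparison of mutant replicate 1 alone with the controls, for Emx2 (0.060), Ebf1 (0.049) and Gng13 (0.076). With library weights they turned for Emx2 (0.031) and Gng13 (0.0085). Leaving out mutant replicate 2 gave 0.13 for Emx2, 0.016 for Ebf1, 0.050 for Insm1 and 0.0063 for Blnk. Leaving out control replicate 2 gave 0.061 for Emx2, and leaving out control replicate 3 gave 0.00070 for Gng13. Over the libraries left out, the lowest changes were -0.11 for Emx2, -0.12 for Ebf1, -0.25 for Insm1 and -0.091 for Gng13. The ratio of Insm1 to Gng8 ran from -0.10 to 0.15 in the same way. The cause was not tested. No paired analysis was possible because the labels give no replicate numbers, and those used here only name the libraries. Neurog1 rests on few fragments, with a counting error of 13.0% in mutant replicates 2 and 3.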

Other observations

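Gnrh1, made by the neurons that migrate out of the nose, had 8.92, 7.32 and 5.77 FPKM in mutant libraries, against 4.56, 5.76 and 3.40 FPKM in control libraries. The groups did not overlap, and the change of 0.59 ± 0.19 (SE) had a limma adjusted p of 0.329. Ptprr, in the same list of vomeronasal and GnRH neuron genes, had a change of 0.27 with a limma adjusted p of 0.333.

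Calb1, a calcium-binding protein of that list chosen after its values were seen, had 1.24, 0.468 and 0.984 FPKM in mutant libraries, against 5.5, 6.67 and 0.648 FPKM in control libraries. Control replicate 3 stood with the mutants, so the groups overlapped, and the limma adjusted p was 0.461.

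Gstm1, a detoxifying enzyme abundant in olfactory supporting cells, had 291, 226 and 348 FPKM in mutant libraries, against 404, 466 and 487 FPKM in control libraries, with a change of -0.67 and a limma adjusted p of 0.207. In the same list Krt5, a keratin of basal cells of all stratified epithelia and chosen after its values were seen, had 288, 293 and 273 FPKM in mutant libraries, against 228, 169 and 120 FPKM in control libraries. Its groups did not overlap, and the change of 0.77 had a limma adjusted p of 0.265.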
